A study of Mus musculus with 3 samples.

Results

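Lin28a, Trim71, the processing enzymes Drosha and Dicer1 and their partners, and Ago2 were all detected well above array background in undifferentiated F9 cells. Drosha and its partner Dgcr8 each also had 1 probe set below background. The 1 probe set of Lin28b was not above background, and Dis3l2 was called nearer the threshold, through 1 of its 3 probe sets. These results concern 10 genes around the RNA-binding protein Lin28 and the making of microRNAs: Lin28a, Lin28b, Trim71, Drosha, Dgcr8, Xpo5, Dicer1, Tarbp2, Ago2 and Dis3l2. They were taken as all probe sets whose platform annotation names exactly 1 of these genes, which gave 25 probe sets of the 45101 on each array. A probe set is a group of short probes on the array that reads out 1 transcript or several similar ones.

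F9 is a mouse embryonal carcinoma line, derived from a teratocarcinoma, that stays undifferentiated in ordinary culture. Total RNA of each labelled replicate was hybridised to its own Affymetrix Mouse Genome 430 2.0 array, 3 in all, from cells in DMEM with 10% fetal calf serum on plates coated with 0.2% gelatin and near 80% confluence. The 3 arrays form 1 group, with no treated, differentiated or control sample. The only question the design allows is therefore which of these genes give a signal above background, and how far the arrays differ.

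A microRNA is cut from a longer transcript in the nucleus by the microprocessor, in which Drosha is the RNase and Dgcr8 the RNA-binding partner. Exportin-5, the product of Xpo5, carries the hairpin to the cytoplasm, Dicer1 with its partner Tarbp2 trims it, and Ago2 holds the mature strand and silences its targets. Lin28 proteins hold back the let-7 family in pluripotent cells. Lin28a binds the loop of the let-7 precursor, terminal uridylyltransferases add a U tail to it, and the exonuclease Dis3l2 degrades the tailed RNA. Trim71, the mouse Lin41, is a let-7 target that keeps stem cells proliferating.

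The let-7 sequences are shown because they are the substrate shared by Lin28a, Lin28b and Dis3l2, and because Trim71 and the let-7 targets described below are recognised through the seed. In the RefSeq microRNA table (GRCm38.p6) the family had 9 distinct mature 5p strands, and 9 of them carried the same seed, bases 2 to 8, which is set in capitals. The arrays did not measure mature microRNAs, so no level is given for them.
let-7a-5p: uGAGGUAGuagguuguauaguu
let-7e-5p: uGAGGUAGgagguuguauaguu
let-7g-5p: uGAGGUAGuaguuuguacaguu
miR-98-5p: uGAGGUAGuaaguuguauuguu

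The Lin28 zinc knuckles are known to recognise the letters GGAG in the precursor loop. These letters were searched on the transcript strand of each hairpin, between its 5p and 3p strands, and are set in capitals below. They were present in 8 of the 11 let-7 family hairpins with both strands in the table, let-7b, let-7c-2 and miR-98 being those without. Among all 644 mouse hairpins with both strands listed, 52 (8.07%) held the letters in that stretch, whose length varies from hairpin to hairpin. A match is a description of the letters, not a measured binding site. The let-7g hairpin lies at chr9:106178840-106178927 (+ strand), let-7f-2 at chrX:151912346-151912428 (+ strand) and miR-98 at chrX:151913214-151913321 (+ strand).
let-7g hairpin: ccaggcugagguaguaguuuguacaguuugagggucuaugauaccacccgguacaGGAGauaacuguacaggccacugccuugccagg
let-7f-2 hairpin: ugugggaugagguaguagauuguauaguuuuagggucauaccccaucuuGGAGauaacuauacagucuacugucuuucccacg
miR-98 hairpin: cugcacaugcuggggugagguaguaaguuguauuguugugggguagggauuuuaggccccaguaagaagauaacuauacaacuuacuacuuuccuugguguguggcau

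Signals are linear intensities in arbitrary units as deposited, and the median over all probe sets lay between 36.0 and 37.8 on the 3 arrays. Background was the 95th percentile of 129 probe sets for gene families with narrow expression (olfactory, taste and vomeronasal receptor genes, and keratin-associated protein genes of hair), and lay between 43.1 and 46.0. A probe set was called above background when limma's one-sided moderated test of log2 signal minus log2 threshold passed an adjusted p of 0.05, with Benjamini-Hochberg adjustment over 45037 probe sets. Not above background does not mean absent. Probes differ in affinity, so no gene's level is ranked against another's, and each is set against the threshold. Markers were read to check the cell label: 6 of 6 pluripotency genes were called, with a summed signal of 28771 to 29649 per array, Pou5f1 at 6809 ± 279 and Sox2 at 4794 ± 208 (mean ± SD, n = 3). The endoderm genes, headed by Gata4 (52.8 ± 17.7) and Gata6 (57.5 ± 3.95), were called by limma in 0 of 6 cases (2 with an unadjusted p under 0.05), with sums of 232 to 320. Gata6 missed the call narrowly (limma adjusted p = 0.0503) and was over the threshold on all 3 arrays. Mixl1 (13.7 ± 8.17), Mesp1 (60.7 ± 12.2) and the other differentiation genes of their list were also called in 0 of 6 cases (2 with an unadjusted p under 0.05), with sums of 191 to 217. Of 6 fibroblast genes 1 was called, Thy1 at 105 ± 17.3, chosen after its value was seen, while Col1a1 (22.0 ± 11.2) and Col1a2 (39.3 ± 10.3) were not, and the sums ran from 212 to 270.

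Of the 25 probe sets of the 10 genes, 20 (80%) were above background, beside 38.2% of all probe sets tested. By the probe set with the highest mean signal, 9 of the 10 genes were above background, beside 51.1% of 18078 named genes. The median over the 10 genes was 4.19 log2 units over the threshold, beside 0.72 over all named genes. Taking the highest probe set favours genes with several of them. The 10 genes have 25 probe sets, against 34945 for 18193 named genes, so these gene shares and medians are not fully like for like. The same limit holds for the gene lists below. The 10 genes were also chosen with earlier results of these data known. All 20 called probe sets exceeded the threshold on every array, and 4 of the other 5 exceeded it on none.

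**Figure D1:**
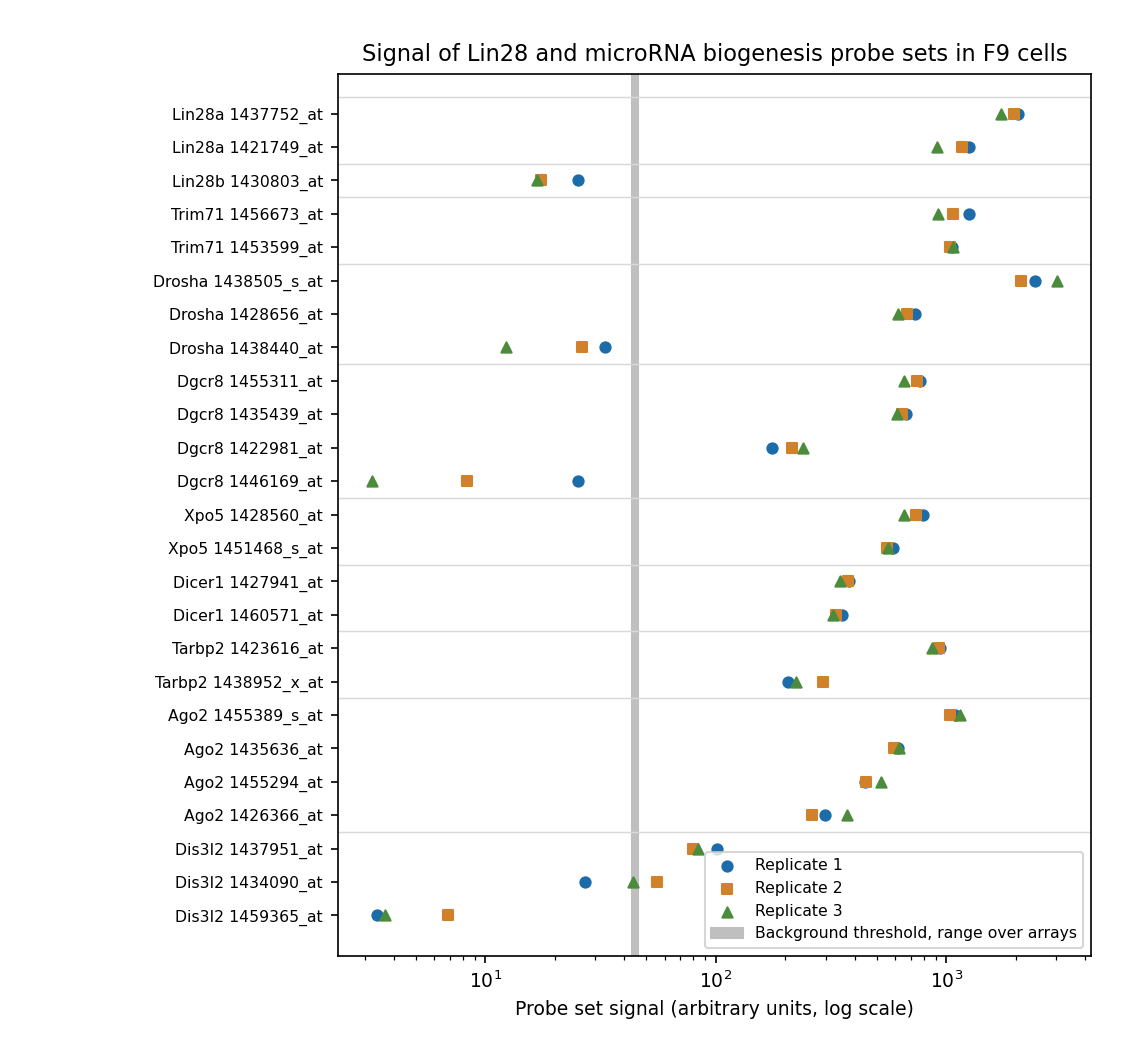
Signal of the 25 probe sets (rows, grouped by gene) on the 3 arrays of F9 cells, on a log axis in arbitrary units, with the background threshold's range over arrays (43.1 to 46.0) in grey. Of the 25 rows, 20 lie right of the grey band on all 3 arrays, and Lin28b lies left of it on all 3. Signals are read against the band, not between rows.

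Lin28a, the founding mammalian Lin28 protein and a reprogramming factor, was read by 2 probe sets. The probe set 1437752_at had signals of 2044, 1969 and 1723 on replicates 1, 2 and 3, and 1421749_at had 1258, 1169 and 912. The lowest of the 6 values was 21.2 times its array's background threshold. On the log2 scale the first lay 5.42 units over the threshold (95% interval 5.07 to 5.77, limma adjusted p = 0.000109) and the second 4.63 units (4.20 to 5.07, limma adjusted p = 0.000148). Replicate 3 was the lowest array in both.

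Lin28b, the paralogue that also blocks let-7, was read by 1 probe set, 1430803_at, with signals of 25.2, 17.5 and 16.8 on replicates 1, 2 and 3. All 3 values lay below the thresholds of their arrays. The mean lay at -1.19 log2 units relative to the threshold, and its 95% interval of -1.74 to -0.64 did not reach 0 (limma adjusted p = 1.00 for a level above). With a single probe set, a weak probe and a low transcript level cannot be told apart. The distance between the Lin28a and Lin28b signals is likewise not a ratio of their transcripts.

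Trim71, a ubiquitin ligase family member that binds and represses messenger RNAs, was above background in both of its probe sets. The probe set 1456673_at had 1253, 1074 and 919 on replicates 1, 2 and 3, and 1453599_at had 1060, 1033 and 1073. These lay 4.59 and 4.57 log2 units over the threshold (limma adjusted p = 0.000147 and 0.000114). The highest of the 3 arrays exceeded the lowest by 36.3% in the first probe set and by 3.91% in the second. Replicate 3 was the lowest array in the first and the highest in the second.

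The nuclear step was detected in both subunits, but each of them also had 1 probe set below background. For Drosha, the RNase of the microprocessor, 1438505_s_at had 2424, 2101 and 3019 on replicates 1, 2 and 3, and 1428656_at had 733, 674 and 620. They lay 5.80 and 3.92 log2 units over the threshold (limma adjusted p = 0.000144 and 0.00014). The suffix _s_at marks probes that can match more than 1 transcript. The remaining Drosha probe set, 1438440_at, had 33.0, 26.3 and 12.4, below the threshold on all 3 arrays (-1.01 log2 units, 95% interval -2.05 to 0.019).

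Dgcr8, which recognises the primary transcript for Drosha, was read by 4 probe sets, of which 3 were above background. The probe set 1455311_at had 770, 748 and 654 on replicates 1, 2 and 3, and 1435439_at, which the annotation assigns to the same source sequence, had 667, 645 and 610. They lay 4.02 and 3.85 log2 units over the threshold (limma adjusted p = 0.000132 and 0.000131) and are not independent readings. The probe set 1422981_at was lower, at 175, 215 and 239, or 2.22 log2 units over (limma adjusted p = 0.000889), and here replicate 1 was the lowest array. The last, 1446169_at, had 25.3, 8.36 and 3.22, below the threshold on all 3 arrays.

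Xpo5, the export receptor for precursor hairpins, was above background in both probe sets. Signals were 789, 740 and 654 on replicates 1, 2 and 3 with 1428560_at, and 587, 555 and 561 with 1451468_s_at. The log2 distances over the threshold were 4.03 and 3.67 (limma adjusted p = 0.000138 and 0.000142).

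Dicer1, the cytoplasmic RNase that releases the mature duplex, varied little between arrays. The probe set 1427941_at had 379, 375 and 346 on replicates 1, 2 and 3, and 1460571_at had 353, 332 and 324. The highest array exceeded the lowest by 9.38% and 9.04%. The probe sets lay 3.04 and 2.92 log2 units over the threshold (limma adjusted p = 0.000182 and 0.000206).

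Tarbp2, the double-stranded RNA-binding partner of Dicer1, was also above background in both probe sets. The probe set 1423616_at had 942, 927 and 863 on replicates 1, 2 and 3 (4.35 log2 units over the threshold, limma adjusted p = 0.000115). The other, 1438952_x_at, had 206, 291 and 223 (2.41 units, limma adjusted p = 0.000646), and replicate 2 was the highest array. The suffix _x_at marks probes that may cross-hybridise with other transcripts.

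Ago2, the Argonaute protein with slicer activity, was above background in all 4 of its probe sets. The probe set 1455389_s_at had 1095, 1033 and 1152 on replicates 1, 2 and 3 (4.62 log2 units over the threshold, limma adjusted p = 0.00012), and 1435636_at, assigned to the same source sequence, had 616, 595 and 621 (3.78 units, limma adjusted p = 0.000139). The other two gave 443, 449 and 519 for 1455294_at (3.40 units, limma adjusted p = 0.000213) and 298, 262 and 370 for 1426366_at (2.78 units, limma adjusted p = 0.000659). Replicate 3 was the highest array in all 4, whereas it was the lowest in both Lin28a probe sets. Quantile normalization or division of each array by its median left both of these orders as they were.

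Dis3l2, the exonuclease that degrades uridylated pre-let-7, was called through 1 of its 3 probe sets. This was 1437951_at, with 101, 79.8 and 83.7 on replicates 1, 2 and 3, or 0.98 log2 units over the threshold (95% interval 0.56 to 1.40, limma adjusted p = 0.00666). With the threshold at the 99th percentile of the background probe sets this call was lost (0.60 units, limma adjusted p = 0.0538). The probe set 1434090_at had 27.0, 55.5 and 43.9, over the threshold on 2 of 3 arrays, and 1459365_at had 3.39, 6.91 and 3.69.

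**Figure D2:**
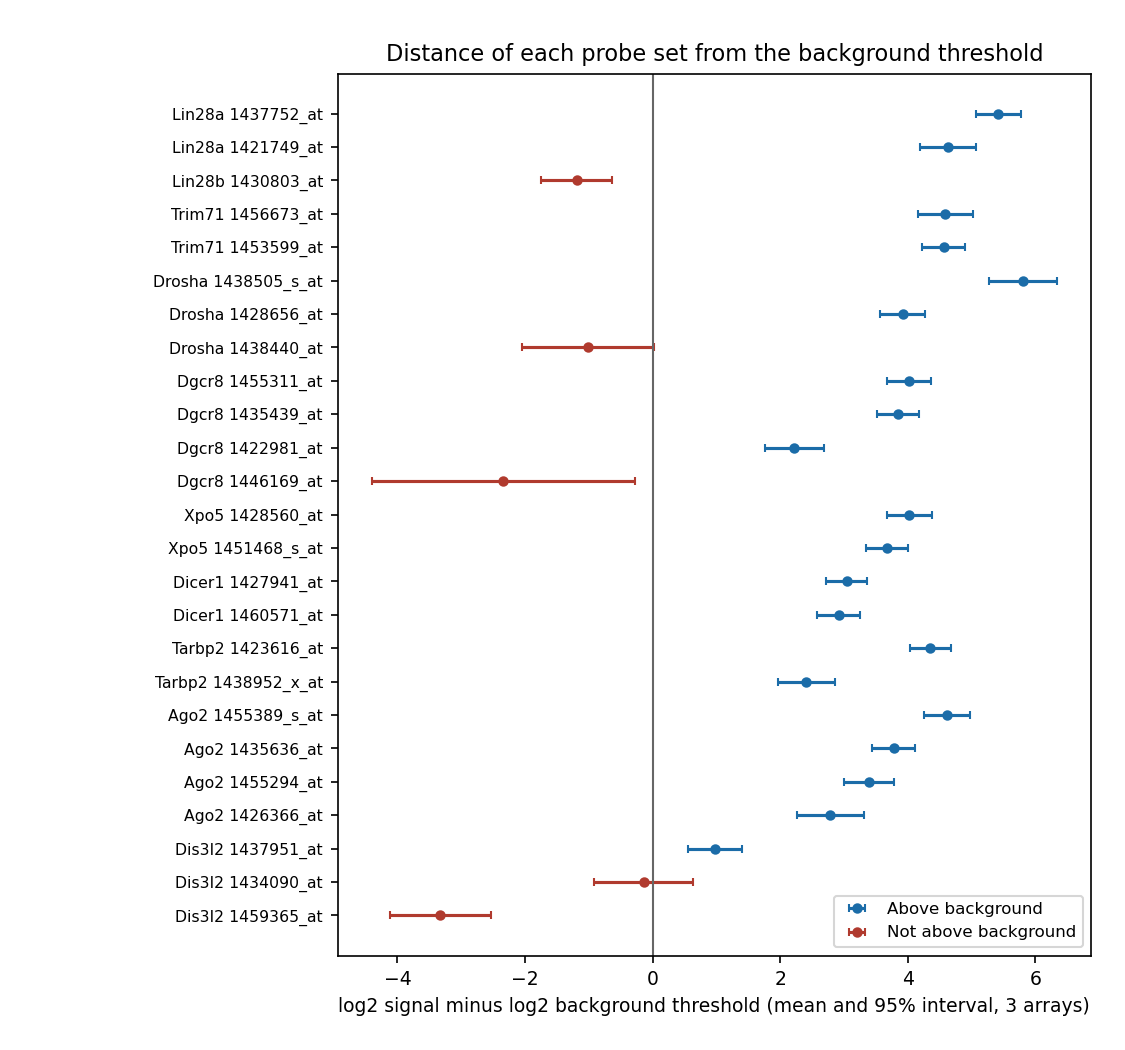
Mean distance of each of the 25 probe sets from the background threshold (vertical line at 0) in log2 units, with 95% intervals from limma over 3 arrays of F9 cells. The called probe sets run from 0.98 (Dis3l2) to 5.80 (Drosha), and the interval of Lin28b, -1.74 to -0.64, lies wholly below 0.

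Probe sets of 1 gene fell on both sides of the call in 3 of the 9 genes with several probe sets, namely Drosha, Dgcr8 and Dis3l2. Over all named genes with several probe sets that share was 39.8%. In 6 genes (Lin28a, Trim71, Xpo5, Dicer1, Tarbp2 and Ago2) every probe set was above background. For this count no share over all named genes was computed, so it is not read as particular to these genes.

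Between arrays, the called probe sets of these genes varied about as much as others. Their median SD of log2 signal was 0.13, with a range of 0.028 to 0.26, and the median over all probe sets above background was also 0.13. The 5 probe sets not above background had a median SD of 0.56. Over all 25 probe sets, called or not, the median SD was 0.14. From the remaining arrays it was 0.13 without replicate 1, 0.17 without replicate 2 and 0.075 without replicate 3. No matching SD over all probe sets of the array was computed with a replicate left out. Of the 20 called probe sets, 12 had their highest signal on replicate 1, 1 on replicate 2 and 7 on replicate 3, while 3 were lowest on replicate 1, 7 on replicate 2 and 10 on replicate 3. Over all probe sets above background, the highest signal lay on replicate 1 in 31.0%, on replicate 2 in 32.2% and on replicate 3 in 36.8% of cases. The lowest lay there in 30.4%, 32.2% and 37.3% of cases, in the same order of arrays. With each array divided by its median, the 20 called probe sets were highest in 11, 1 and 8 cases on replicates 1, 2 and 3. They were then lowest in 3, 8 and 9 cases, and quantile normalization left the counts as they were. The median absolute log2 difference over the 20 probe sets was 0.086 between replicates 1 and 2, against 0.23 between 1 and 3 and 0.16 between 2 and 3. Over all probe sets above background it was 0.12, 0.16 and 0.16 for the same pairs. The labels give no batch or date for the arrays, and a cause for the wider distance of replicate 3 was not tested.

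**Figure D3:**
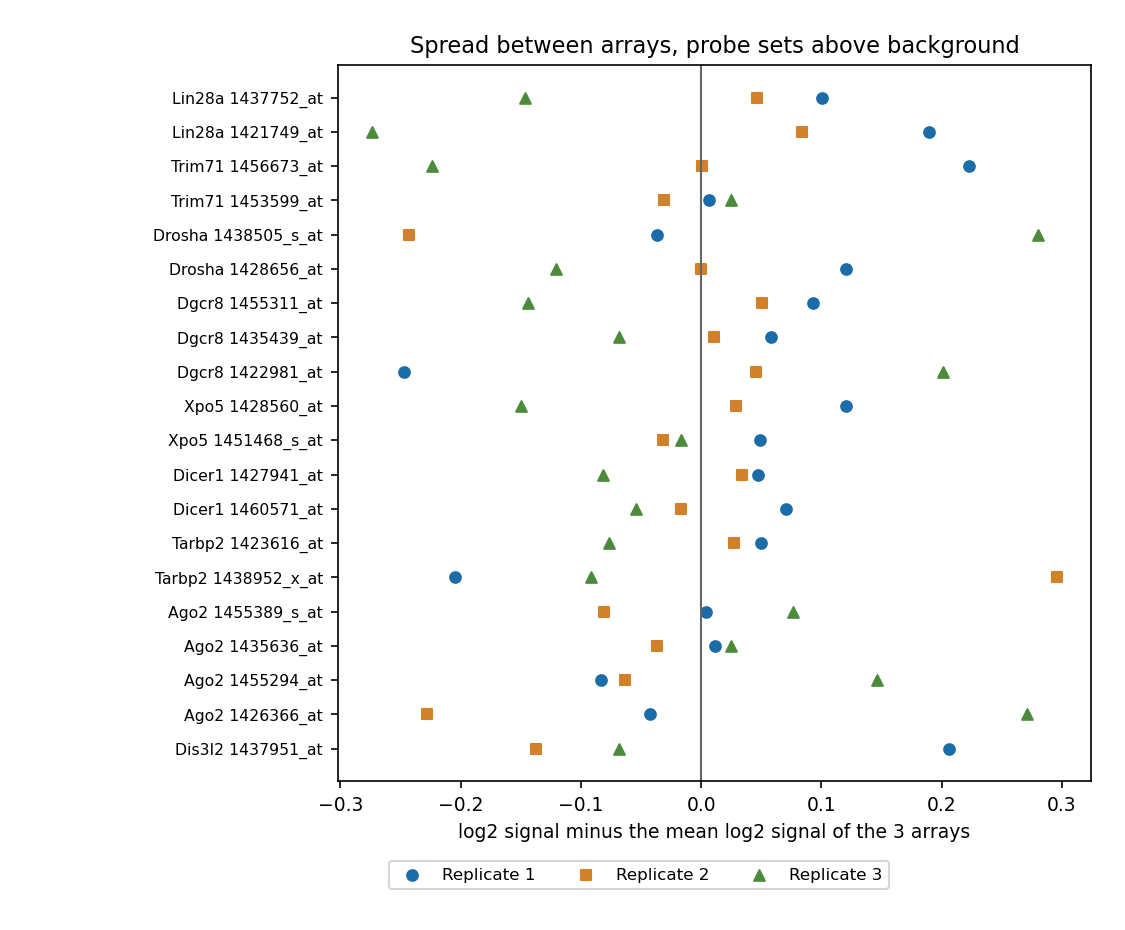
Log2 signal on each array minus the mean log2 signal of the 3 arrays, for the 20 probe sets above background. Replicate 3 is lowest in both Lin28a rows and highest in all 4 Ago2 rows, and the SD of a row runs from 0.028 (Trim71 1453599_at) to 0.26 (Drosha 1438505_s_at).

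The wider pathway was looked at through 6 lists of other genes, of which 101 of 109 listed entries were analysed. In all, 86 (85.1%) were above background, beside 51.1% of named genes. The counts below carry no test of the list, and list genes such as chaperones, helicases and cyclins serve many cellular functions besides microRNA biology.

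Among microprocessor partners 12 of 13 were above background, with a median of 5.03 log2 units over the threshold. The RNA helicases Ddx5 and Ddx17, which join Drosha in the large microprocessor complex, had mean signals of 5834 ± 602 and 4349 ± 25.2. Their margins of 7.03 and 6.61 log2 units were 1.61 and 0.69 with the probe set chosen by its suffix, and both stayed above background. Srrt (Ars2), which links the nuclear cap-binding complex to primary microRNA processing, stood at 1460 ± 154, and the cap-binding subunit Ncbp1 at 1368 ± 111. The exception was Adarb1, an adenosine deaminase that edits double-stranded RNA, at 35.5 ± 0.997 and -0.33 log2 units, with 0 of its 3 probe sets called by limma. Choosing its probe set by suffix gave -1.83 log2 units.

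Export, dicing and loading partners were above background in 7 of 7 cases by their highest probe set (median 6.81 log2 units). In 5 of the 7 another probe set of the gene was not called. Ran, the GTPase that drives Exportin-5, had a signal of 10881 ± 288, and the exportin Xpo1 4411 ± 646. Prkra (PACT), the other double-stranded RNA-binding partner of Dicer, had 237, 199 and 123 on replicates 1, 2 and 3. It lay 2.01 log2 units over the threshold (limma adjusted p = 0.00383) in 1 of its 2 probe sets. Hspa8, a chaperone of Argonaute loading, stood at 12975 ± 139. With the probe set chosen by its suffix the margin of Ran was 5.64 log2 units rather than 7.93, and that of Hspa8 2.79 rather than 8.19.

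The silencing complex was above background in 21 of 23 genes (median 3.80 log2 units), and both genes that were not are Argonautes. Ago1 passed with 271, 273 and 262 on replicates 1, 2 and 3 (2.59 log2 units, limma adjusted p = 0.000242). Ago3 had 104, 58.0 and 55.6, over the threshold on every array but with a limma adjusted p of 0.0983, and 0 of its 5 probe sets were called. It did pass with the 90th percentile as threshold (limma adjusted p = 0.027) and with a signal-dependent prior variance (0.0225). Ago4 had 5.99, 14.8 and 14.6, or -2.03 log2 units, with 0 of 2 probe sets called. Tnrc6a, a GW182 scaffold that ties Argonaute to deadenylation, stood at 626 ± 92.0, with 7 of 9 probe sets called.

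Genes of let-7 control, RNA tailing and turnover were above background in 14 of 15 cases (median 3.62 log2 units). The uridylyltransferases that work with Lin28a on pre-let-7, Zcchc11 (Tut4) and Zcchc6 (Tut7), had mean signals of 548 ± 42.1 and 422 ± 45.8. Only 1 of the 5 Zcchc11 probe sets was called, and 2 of 2 for Zcchc6. Tut1, which adds uridines to U6 RNA, stood at 225 ± 19.2 with 1 of 2 probe sets called. The poly(A) polymerase Papd4 (Gld2) stood at 955 ± 95.9 with 2 of 2 called. Dis3l, the cytoplasmic exosome relative of Dis3l2, was not called, with 63.8, 17.7 and 38.7 on replicates 1, 2 and 3.

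Of the let-7 targets, 17 of 18 were above background by their highest probe set (median 3.02 log2 units). Probe sets fell on both sides of the call in 9 of the 18. The chromatin protein gene Hmga2 had 411, 426 and 236 on replicates 1, 2 and 3 (2.96 log2 units, limma adjusted p = 0.00116), with replicate 3 the lowest, and 3 of its 4 probe sets were called. Choosing the probe set by its suffix gave a margin of 1.76 log2 units. The Myc family genes Mycn and Myc stood at 376 ± 16.6 and 772 ± 10.5, with 2 of 3 and 1 of 1 probe sets called. Igf2bp1, an oncofetal RNA-binding protein gene, stood at 1839 ± 98.0, with 4 of 4 probe sets called. Insr, the insulin receptor gene, was not called (67.7 ± 19.7, limma adjusted p = 0.114). It passed with the 90th percentile as threshold (limma adjusted p = 0.0485) and with a signal-dependent prior variance (0.04). A target's signal above background does not measure let-7 activity, since no sample with another let-7 level was measured.

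Genes that carry microRNAs in their introns or transcripts were above background in 15 of 25 cases (60%), near the 51.1% of all named genes. Mcm7, a replicative helicase subunit that hosts the miR-106b cluster, had a signal of 8597 ± 96.8, and Smc4, a condensin subunit that hosts miR-15b, 3089 ± 139. Huwe1, the ubiquitin ligase gene that hosts the let-7f-2 and miR-98 hairpins printed above, had 1958, 1888 and 1884 on replicates 1, 2 and 3 (5.42 log2 units, limma adjusted p = 0.000109), with 3 of 5 probe sets called. Dleu2, host of miR-15a, was not called (67.9 ± 24.3, 0 of 3 probe sets), nor were Aatk (19.3 ± 11.9) and Ctdspl (59.1 ± 10.7). Ctdspl passed with the 90th percentile as threshold (limma adjusted p = 0.0254). A host gene's signal gives no level for the microRNA.

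**Figure D4:**
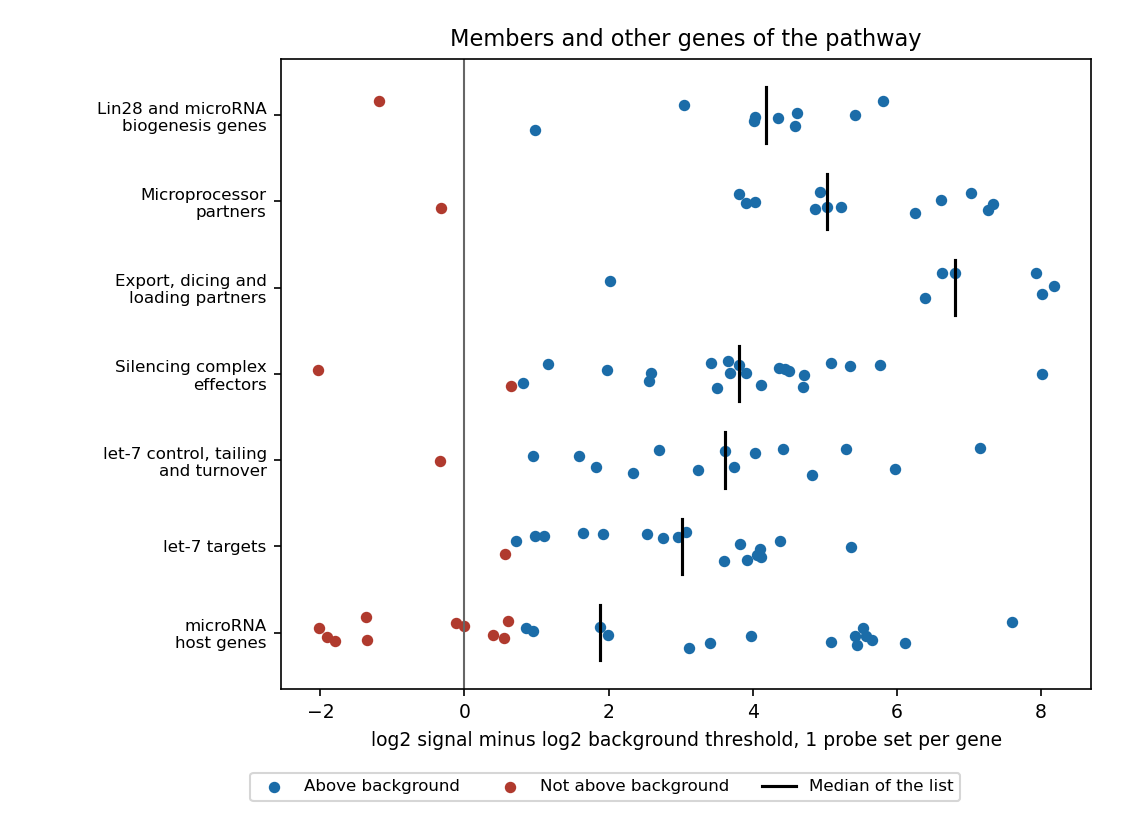
Distance from the background threshold in log2 units, 1 point per gene at its probe set with the highest mean, for the 10 genes and for 6 lists of other pathway genes in F9 cells, with each list's median as a black bar. Medians run from 1.88 for microRNA host genes to 6.81 for export, dicing and loading partners, with 4.19 for the 10 genes.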

How the data were processed

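The 3 arrays were analysed from the deposited table of linear signal intensities, 1 per probe set. The authors used GCOS 1.4, per the submitters' processing notes, whereas neither the signal algorithm nor detection calls are given in the sources used here. The mean after trimming 2% at each end was 250.002 on every array, so the deposited intensities had been scaled, which hides any change in total RNA. Array number limits the precision.

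The platform annotation dates from 2016. It gave a single gene symbol to 34945 of the 45037 probe sets that are not controls. The gene identifiers of 34741 of these matched the RefSeq table of GRCm38.p6, and 0 symbols differed. The values carry no build, so genes have no coordinates here. limma 3.58.1 in R 4.3.3 tested log2 signal (no pseudocount) minus log2 threshold (lmFit, eBayes, one-sided), and the code was tested on simulated data. Whether each replicate was grown as its own culture is not stated in the labels, and p-values therefore cover only the spread of these 3 samples, possibly a technical one.

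All member probe sets are named, with the first 4 genes analysed of each pathway list, up to 3 with the less common call of their list, and the first pair of each marker list. No gene of most similar pattern is named, since replicates of 1 group hold no pattern across conditions. The members and lists were chosen with earlier results of these data known.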

Additional observations from a re-analysis of the deposited data

How the results depend on the processing

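The number of the 25 probe sets above background was 19 with the threshold at the 99th percentile and 20 under every other alternative run at probe set level: the 90th percentile, olfactory receptors alone, quantile normalization, division by the array median (which leaves each margin unchanged by construction), log2(signal + 16), a signal-dependent prior, a filter on dim probe sets, and leaving out each replicate. The number of genes was 8 of 10 at the 99th percentile and 9 under the others. The call lost was that of Dis3l2. The number was also 9 with each gene's probe set picked by its suffix, or without _s_at and _x_at probe sets. Both choices changed the probe set only for Drosha (to 1428656_at) and Ago2 (to 1435636_at). The calls of the other member genes could therefore not change under them. The pathway lists had 80 to 90 genes above background under these alternatives, and 82 to 83 with any 1 replicate left out, against 86. Among the probe sets of the 10 genes and the list genes named in the text, those under the threshold that changed sign were Dis3l2 1434090_at, at 0.19 log2 units with the 90th percentile and from -0.35 to 0.15 with 1 replicate left out (above 0 without replicate 1), Adarb1 at 0.0087 with the 90th percentile, and Dis3l, from -0.77 to 0.18 with 1 replicate left out (above 0 without replicate 2). None of those above 0 passed limma's test. The lower percentile raises every margin by the same amount by construction, and the changes with 1 replicate left out come from fewer arrays. The median SD of log2 signal over the 25 probe sets was 0.14, and 0.075 to 0.17 with 1 replicate left out, the lowest being without replicate 3. It was 0.17 with each array divided by its median, 0.14 after quantile normalization and 0.13 with log2(signal + 16). No paired analysis was possible because the series has 1 group.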
